A study of Mus musculus with 6 samples.

Results

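The 10 genes described here encode transcription factors that set up and maintain the T cell lineage: Tcf7, Lef1, Tox, Bcl11b, Gata3, Ikzf1, Satb1, Runx1, Runx3 and Ets1. They were chosen by gene symbol, and all probes that the array annotation assigns to these symbols were taken. The array carried 45281 probes for 19057 named genes, and 25 of these probes belonged to 9 of the 10 genes. No probe was named for Tcf7 in the annotation used, so Tcf7 was not analysed here. Tests were limited to probes with a detection p under 0.01 on 3 or more of the 6 arrays, which kept 20 of the 25 probes and 8 of the 10 genes. The tested set of the whole array held 14651 probes for 8200 named genes.

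Lymphocytes were taken mechanically from the thymus at 8 to 12 weeks of age, and all mice were of C57/bl6-129sv origin. The knockout group was 3 mice labelled CD4-Cre/Kap1flox, which lack KAP1 in the T lineage, and the control group was 3 littermates labelled wt/Kap1flox, so the floxed allele is named for both groups. The protein, the product of Trim28, represses transcription at sites bound by KRAB zinc finger proteins. Recombination by CD4-Cre starts late in the double-negative to double-positive transition, so the earliest thymocytes are not its target, and no cell sort is named in the labels. Each array stands for 1 mouse, so the p-values measure the spread between these mice. The comparison asks whether loss of KAP1 goes with other transcript levels in developing T cells.

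T lineage factors act in sequence. Notch signals switch on TCF1, the product of Tcf7, and GATA3 in early progenitors. BCL11B then closes off other fates at commitment, and RUNX1, ETS1, Ikaros and the E proteins act with them on T cell receptor loci, coreceptor genes and receptor signalling genes. After the double-positive stage, TCF1, LEF1, TOX, GATA3 and SATB1 guide the choice between CD4 and CD8 fates, and RUNX3 marks the CD8 branch by silencing Cd4.

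The preparations carried the transcripts that define thymocytes. Of 12 defining markers 10 were tested, among them Cd3d, Cd3e, Cd3g, Cd4, Cd8b1, Thy1, Rag1 and Rag2. The Cd8a probes were detected on 0 arrays, and no probe was named for Lck here, so a probe without signal on this array does not show that its gene is silent. By p the first of these markers were Cd4 (-0.29 ± 0.27, SE) and Cd3g (0.15 ± 0.19), and all 10 differences lay between -0.29 and 0.29. The summed level of the 10 markers, as log2 of the summed corrected signal, ran from 17.01 to 17.27 in the knockout and from 17.11 to 17.14 in the controls. For Trim28 the mean log2 signal was 10.69 ± 0.40 (SD) over the 3 knockout arrays against 12.41 ± 0.17 over the 3 control arrays, with no overlap (limma adjusted p = 0.23). Over all tested probes 4 passed an adjusted p of 0.05, which is 0.0273% of 14651, and the count was 2 when arrays with neighbouring numbers in the table header were treated as pairs.

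The T lineage factors did not differ between knockout and control beyond the spread between mice. Of the 20 tested probes 0 passed the threshold in limma (adjusted p = 0.998 for each), and 0 had an unadjusted p under 0.05, against 3.54% of all tested probes. The knockout mean lay below the control mean for 19 of 20 probes and for 8 of 8 genes read by their brightest probe, against 51.1% of all tested probes and 52.1% of all tested genes. These differences were small. Over the 8 genes the log2 difference between knockout and control ran from -0.24 to -0.0049 with a median of -0.14, beside a median of -0.013 over all tested genes. The size of the difference, whatever its sign, had a median of 0.14 for the 8 genes and 0.16 for all tested genes. The groups overlapped for 20 of 20 probes, where 7.64% of all tested probes had groups that did not overlap.

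**Figure D1:**
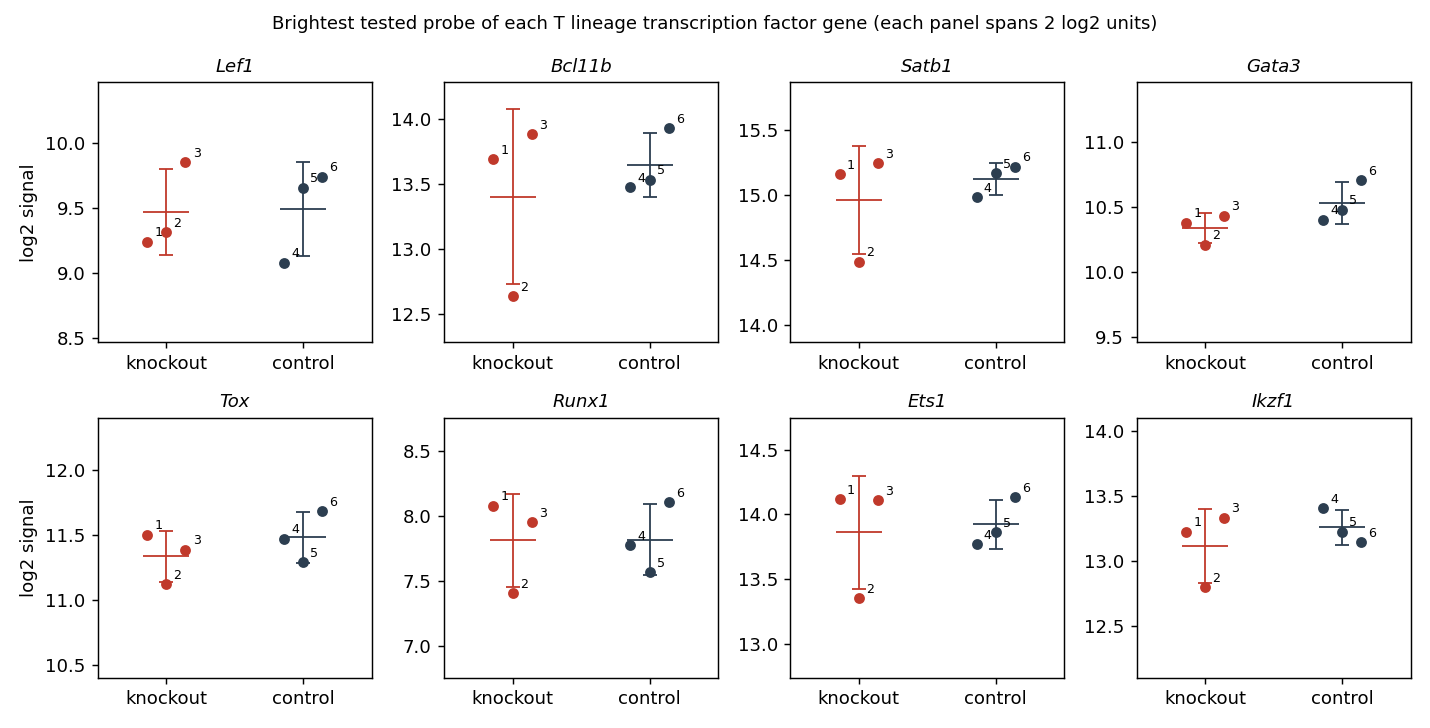
Log2 signal of the brightest tested probe of each of the 8 measured factor genes on the 3 knockout and 3 control arrays. Points are single arrays with their replicate number, and the bars are the group mean and SD (n = 3). Knockout replicate 2 is the lowest of the 6 arrays in 7 of the 8 panels, and the groups overlap in every panel.

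The members with an HMG box, a DNA-binding domain that bends the helix, were Lef1 and Tox, with Tcf7 not analysed here. LEF1 shares target sites with TCF1 and acts with it in thymocytes. Its brightest probe, ILMN_2648475, had log2 signals of 9.25, 9.32 and 9.86 in knockout replicates 1 to 3 and of 9.08, 9.66 and 9.74 in control replicates 4 to 6. The lowest and second highest of these 6 values were controls, so the groups were interleaved, and the log2 difference was -0.023 ± 0.27 (SE, n = 3 per group; limma adjusted p = 0.998). Tox, whose product is needed for thymocytes to enter the CD4 lineage, had a single probe (ILMN_1257547). It read 11.50, 11.12 and 11.39 in the knockout and 11.47, 11.29 and 11.68 in the controls. The lowest value was knockout replicate 2 and the highest was control replicate 6, and the difference was -0.15 ± 0.22 with a 95% interval from -0.64 to 0.35 (limma adjusted p = 0.998).

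The zinc finger factors Bcl11b and Gata3 had the most negative differences of the 8 genes by brightest probe, while by the mean of all tested probes Satb1 (-0.30) came before Bcl11b (-0.27) and Gata3 (-0.19). Bcl11b, which is required for T cell commitment, read 13.69, 12.64 and 13.88 in the knockout and 13.47, 13.53 and 13.93 in the controls by its brightest probe, ILMN_2436183. Knockout replicates 1 and 3 lay inside the control range and replicate 2 lay below the lowest control. The difference was -0.24 ± 0.34 (SE), with a 95% interval from -1.02 to 0.53, the only one of the 8 brightest probes whose interval reached past a 2-fold change. Gata3, a factor of early T cells and of the CD4 lineage, read 10.38, 10.21 and 10.43 in the knockout and 10.40, 10.48 and 10.71 in the controls. This was the tightest measurement of the 8, at -0.19 ± 0.20 with an interval from -0.65 to 0.27, and a single array of each group (knockout replicate 3 and control replicate 4) made the groups overlap.

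Ikzf1 encodes Ikaros, a zinc finger protein that works with the NuRD chromatin remodelling complex. By probe ILMN_2584685 it read 13.22, 12.79 and 13.33 in the knockout and 13.41, 13.22 and 13.14 in the controls, a difference of -0.14 ± 0.22 (SE; 95% interval -0.65 to 0.37). Here control replicate 6 was the lowest control, unlike in the other genes. Satb1 encodes an organiser of chromatin loops that is abundant in thymocytes. Its probe ILMN_1220726 read 15.16, 14.48 and 15.24 in the knockout and 14.98, 15.16 and 15.22 in the controls. The highest and the lowest of the 6 values were both knockout arrays, and the difference was -0.16 ± 0.25 (interval -0.74 to 0.42).

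The Runt domain genes were measured unequally. Runx1, which acts throughout T cell development with its partner CBFB, read 8.08, 7.41 and 7.96 in the knockout and 7.78, 7.57 and 8.11 in the controls by probe ILMN_2589107. The difference was -0.0049 ± 0.26 (SE; 95% interval -0.59 to 0.58), the smallest of the 8. The single Runx3 probe, ILMN_2747141, was detected on 0 of the 6 arrays, with signals before correction between 86.3 and 142 and a lowest detection p of 0.108, so no difference is given for it. Ets1, whose product binds T cell receptor enhancers together with RUNX1, read 14.12, 13.36 and 14.11 in the knockout and 13.77, 13.87 and 14.13 in the controls. Knockout replicates 1 and 3 lay just below the highest control and replicate 2 below all controls, and the difference was -0.060 ± 0.27 (SE; interval -0.67 to 0.55).

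The intervals say how large a difference these arrays could have missed. For 15 of the 20 tested probes the whole 95% interval lay within a 2-fold change in either direction, which is 75% against 74.9% of all tested probes. It lay within a 1.5-fold change for 1 probe, the Ikzf1 probe ILMN_1256645. The half-width of the interval on the log2 scale ran from 0.46, for Gata3, to 1.37, for the Ikzf1 probe ILMN_3051466. For the other 19 probes a difference of 1.5-fold in at least 1 direction lies inside the interval, so the groups are not shown to be alike.

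**Figure D2:**
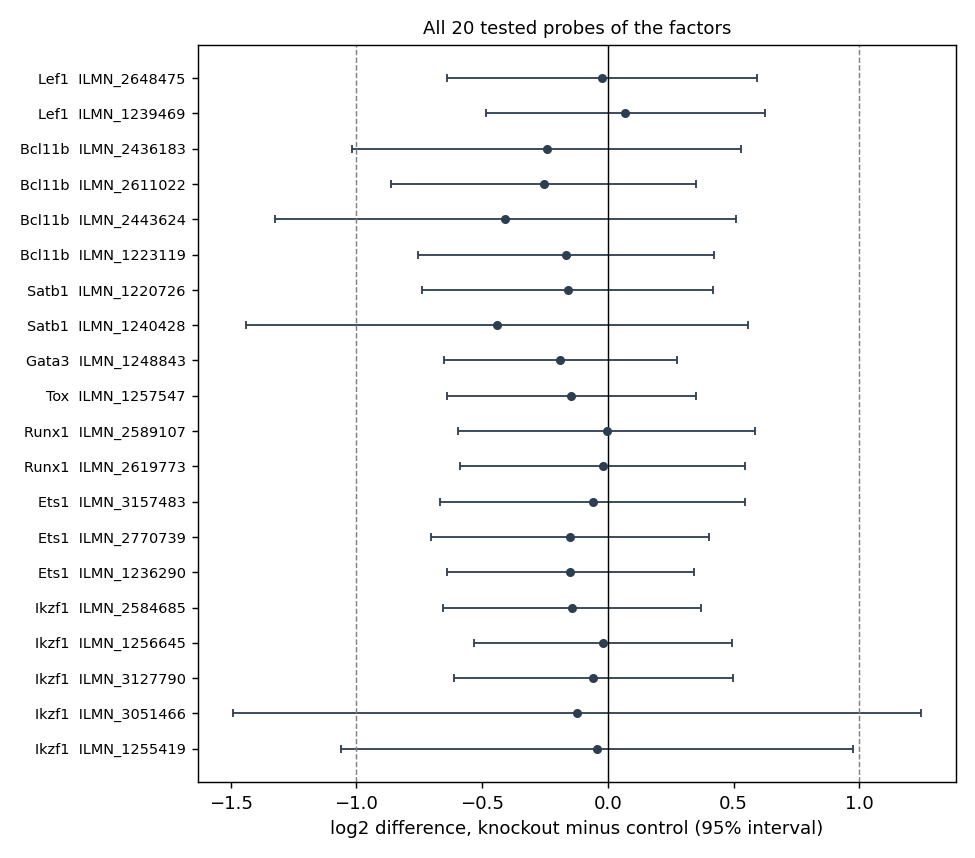
Log2 difference, knockout minus control, with its 95% interval from the limma fit for each of the 20 tested probes. The solid line marks 0 and the dashed lines a 2-fold change. All 20 intervals include 0, and 19 of 20 points lie to its left.

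Probes of the same gene mostly shared their direction, within wide intervals. Of the 6 genes with more than 1 tested probe, 5 had all their probes on the same side of 0, and of the 22 pairs of probes within a gene 21 had the same sign and 22 had overlapping intervals. The other 3 Bcl11b probes differed by -0.26, -0.41 and -0.17, and the other Satb1 probe (ILMN_1240428) by -0.44 ± 0.44 (SE). Satb1 also had the largest gap between the differences of its probes, 0.28. Its brightest probe had signals before correction from 26436.8 to 47600. The authors' normalized values reached at most 48108.9 on each array. These are on another scale, so they do not show how near the probe lay to the upper limit of signal. Whether so bright a probe understates differences was not tested. The other Ets1 probes differed by -0.15 each, the other Runx1 probe by -0.021, and the other 4 Ikzf1 probes by values from -0.12 to -0.020. From array to array the 2 Runx1 probes ran opposite ways: knockout replicate 2, the lowest array for ILMN_2589107, was the second highest for ILMN_2619773, which was detected on 3 arrays. Lef1 was the exception, with its second probe (ILMN_1239469) at 0.070 ± 0.24. Probes of a gene share the same 6 mice, so a shared direction adds no replicates. Under the filter that keeps probes detected on all 6 arrays, 18 of 19 probes lay below 0, since the second Runx1 probe, detected on 3 arrays, dropped out. The 4 probes of Lef1, Ets1 and Ikzf1 that were detected on 0 arrays (ILMN_1231087, ILMN_1233230, ILMN_2481426 and ILMN_2569464) carry no measured difference.

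The common direction depended on 1 array. Knockout replicate 2 gave the lowest value of the 6 arrays for 7 of 8 genes and 14 of 20 probes, where it was lowest for 29.1% of all tested genes and 27.7% of all tested probes. It was the highest array for 0 of these 20 probes and for 26.6% of all tested probes. Control replicate 6 gave the highest value for 5 of 8 genes, against 17.6% of all tested genes. Without knockout replicate 2 the knockout mean lay above the control mean for 12 of 20 probes, against 52.6% of all tested probes, and the median over the 8 genes turned to 0.067. The brightest probes of Bcl11b, Satb1, Runx1, Ets1, Ikzf1 and Lef1 then stood at 0.14, 0.079, 0.20, 0.19, 0.020 and 0.055, and those of Gata3 and Tox at -0.12 and -0.038. The other Bcl11b probes stayed below 0 (-0.30, -0.074 and -0.064), as did the other Ets1 probes (-0.25 and -0.058) and Runx1 probe (-0.11). The probes of Bcl11b, Ets1 and Runx1 thus no longer shared a direction, while all probes of Satb1, Ikzf1 and Lef1 lay above 0. Leaving out any other single array gave a count below 0 between 14 (without control replicate 6) and 20 (without control replicate 4) of 20 probes. With array weights, which gave knockout replicate 2 the lowest weight, 0.364, 11 of 20 probes lay below 0.

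**Figure D3:**
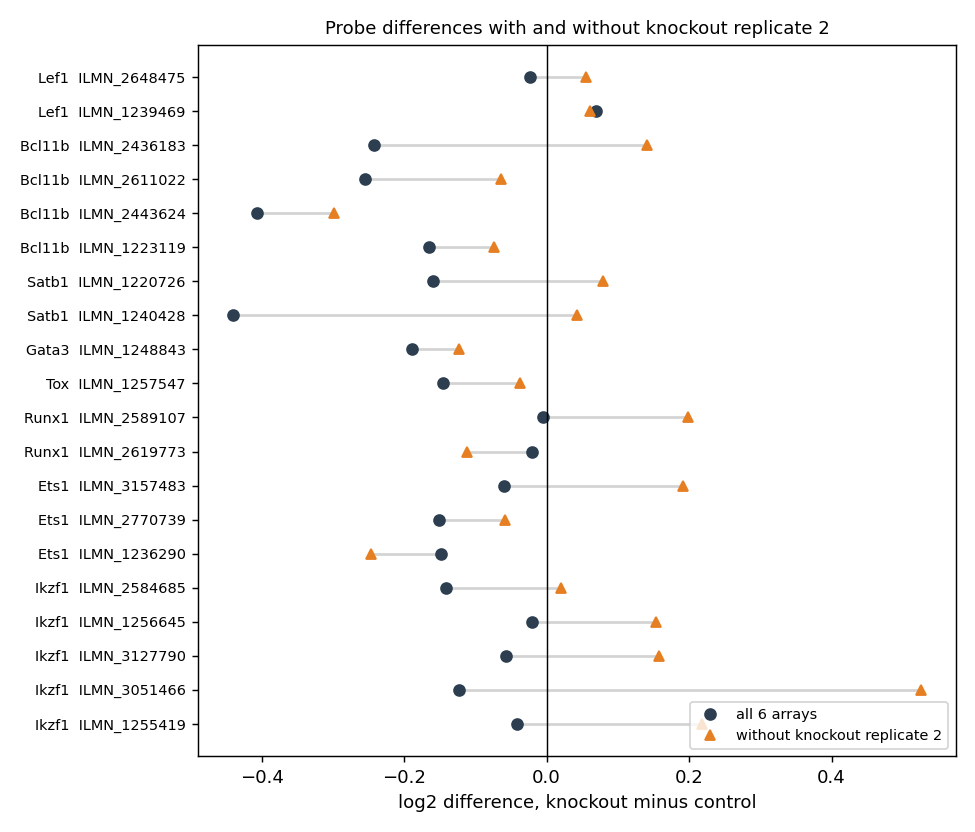
Log2 difference, knockout minus control, of each of the 20 tested probes over all 6 arrays (circles) and without knockout replicate 2 (triangles). With all arrays 19 points lie below 0, and without that array 8 do.

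Taken as pairs of arrays, the same values again set knockout replicate 2 apart, which is not separate support. The table header gives each array a number, and the 6 numbers form 3 neighbouring pairs of a knockout and a control array, although no label says what they stand for. In the pair of knockout replicate 2 and control replicate 5 the knockout was lower for 18 of 20 probes, with a median of -0.44. In the pair of knockout replicate 1 and control replicate 4 it was lower for 7 of 20 probes, with a median of 0.11, and in the pair of knockout replicate 3 and control replicate 6 for 10 of 20, with a median of 0.011. Over all tested probes the share lower in the knockout was 50%, 51.1% and 48.7% in the pair of replicates 1 and 4, of 2 and 5, and of 3 and 6. With the pairs as a block the members' smallest adjusted p was 0.976.

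Knockout replicate 2 was also the highest array for the markers of mature T cells and of some, but not all, other cell types. Averaged over the tested genes of each list, its log2 level of 8 mature single-positive markers was 10.24, where the other arrays ran from 8.96 to 9.78. That of 8 macrophage and dendritic cell markers was 9.65, against 8.29 to 9.09, and that of 4 NK and innate-like T cell markers was 7.83, against 6.41 to 6.86. The 6 early double-negative and 2 B cell markers were highest on it too, at 7.44 and 8.54. The neutrophil and thymic epithelial lists lay inside the range of the other arrays, at 7.70 and 6.97, and the erythroid list was lowest on it, at 7.76. The 10 thymocyte markers were lowest on this array, at 12.12 against 12.25 to 12.49, as were the 8 T lineage factors, at 11.42 against 11.80 to 12.08. By summed level, in place of the average, the early double-negative list was lowest on knockout replicate 2, at 10.83 against 11.01 to 11.15. So was the thymic epithelial list, at 8.26 against 8.40 to 9.22. In bulk RNA, fewer cells of a type and less RNA per cell cannot be told apart. The part of these marker levels in the low factor signals of that array was not tested.

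All marker lists were chosen with earlier results of these data known, so counts within them are not independent support. As groups, 8 of 8 mature single-positive markers and 8 of 8 macrophage and dendritic cell markers had higher means in the knockout, against 47.9% of all tested genes. In limma 0 of them passed the threshold, and 3 and 5 had an unadjusted p under 0.05, against 3.5% of all tested genes. Their summed log2 levels ran from 13.46 to 13.66 in the knockout and 12.90 to 13.26 in the controls for the mature list. They ran from 12.92 to 13.76 and 12.06 to 12.51 for the macrophage and dendritic cell list. By average in place of the sum the groups overlapped for the mature list, at 9.60 to 10.24 in the knockout and 8.96 to 9.64 in the controls. For the macrophage and dendritic cell list the averages did not overlap (9.08 to 9.65 and 8.29 to 8.77). Without knockout replicate 2 the medians of the mature list and of the NK and innate-like list went from 0.63 to 0.40 and from 0.55 to 0.23. In the mature list the smallest p values belonged to Itgb7, a chain of mucosal integrins (0.85 ± 0.30, SE), and Ccr7, a chemokine receptor of maturing thymocytes (1.14 ± 0.45). In the antigen-presenting list they belonged to H2-Aa (1.21 ± 0.28) and H2-Eb1 (1.11 ± 0.27), which encode MHC class II chains, while the defining markers Adgre1, Itgax and Flt3 were detected on 0 arrays. Next by p in that list came H2-Ab1 (1.01 ± 0.30), Mpeg1 (0.85 ± 0.31) and Cd74 (0.68 ± 0.28). Its remaining genes, Csf1r (0.54 ± 0.32), Lyz2 (0.55 ± 0.435) and Siglech (0.10 ± 0.31), had an unadjusted p above 0.05 in limma. Csf1r was detected on 3 knockout arrays and 1 control array, so the detection filter favoured a higher knockout value for it. The 4 tested NK and innate-like markers were all higher (3 of 4 without knockout replicate 2), with Cxcr6 at 0.66 ± 0.36 and Cd160 at 0.71 ± 0.39. The filter favoured a higher knockout value for Cxcr6 too, which was detected on 2 knockout arrays and 1 control array. Summed levels of this list ran from 8.96 to 10.34 in the knockout and 8.69 to 9.28 in the controls. Ncr1, Klrb1c and Zbtb16 were detected on 0 arrays. The B cell list was tested for 2 of 8 genes, Blk (0.83 ± 0.28, and 0.23 ± 0.23 by its other tested probe) and Cd79b (0.62 ± 0.28), with summed levels of 9.50 to 10.29 and 9.03 to 9.57 and Ms4a1 and Pax5 detected on 0 arrays.

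In 2 further lists the means lay the other way. All 15 tested cell cycle genes had lower means in the knockout, with a median of -0.47, Foxm1 at -0.72 ± 0.21 (SE) and Top2a at -0.65 ± 0.27, and their summed level was 13.71 to 14.72 in the knockout and 14.56 to 14.97 in the controls. Their lowest array was knockout replicate 3, at a mean of 9.09 against 9.94 to 10.43 on the others. The T lineage factors had a mean of 12.03 on that array, and a relation between the lists was not tested. Without that array the cell cycle median was -0.13 and 13 of 15 genes were below 0, with Pcna and Tyms above. All 6 tested neutrophil genes had lower means, with Camp at -0.93 ± 0.34 and Ngp at -0.51 ± 0.25 and summed levels of 9.71 to 11.56 and 10.63 to 12.03. The neutrophil count was 4 of 6 without knockout replicate 3 or control replicate 4, with medians of -0.28 and -0.23 against -0.42. The early double-negative list had 5 of 6 genes higher, with Lmo2 at 0.48 ± 0.29 and Cd44 at 0.25 ± 0.23 and summed levels of 10.83 to 11.15 and 11.01 to 11.15, and 3 of 6 were higher without knockout replicate 2, control replicate 5 or control replicate 6. Of the thymic epithelial genes 2 of 8 were tested (Cldn4 at -0.085 and Krt8 at 0.045), and Foxn1, Psmb11 and Krt5 were detected on 0 arrays. The 3 tested erythroid genes spanned summed levels of 9.24 to 11.46 and 9.42 to 11.68, with Hbb-bt at 0.24 ± 0.68 and Hbb-bs at 0.13 ± 0.63. Of the genes of these lists 0 passed the threshold in limma, and 2 of 15 cell cycle and 1 of 6 neutrophil genes had an unadjusted p under 0.05, against 3.5% of all tested genes.

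**Figure D4:**
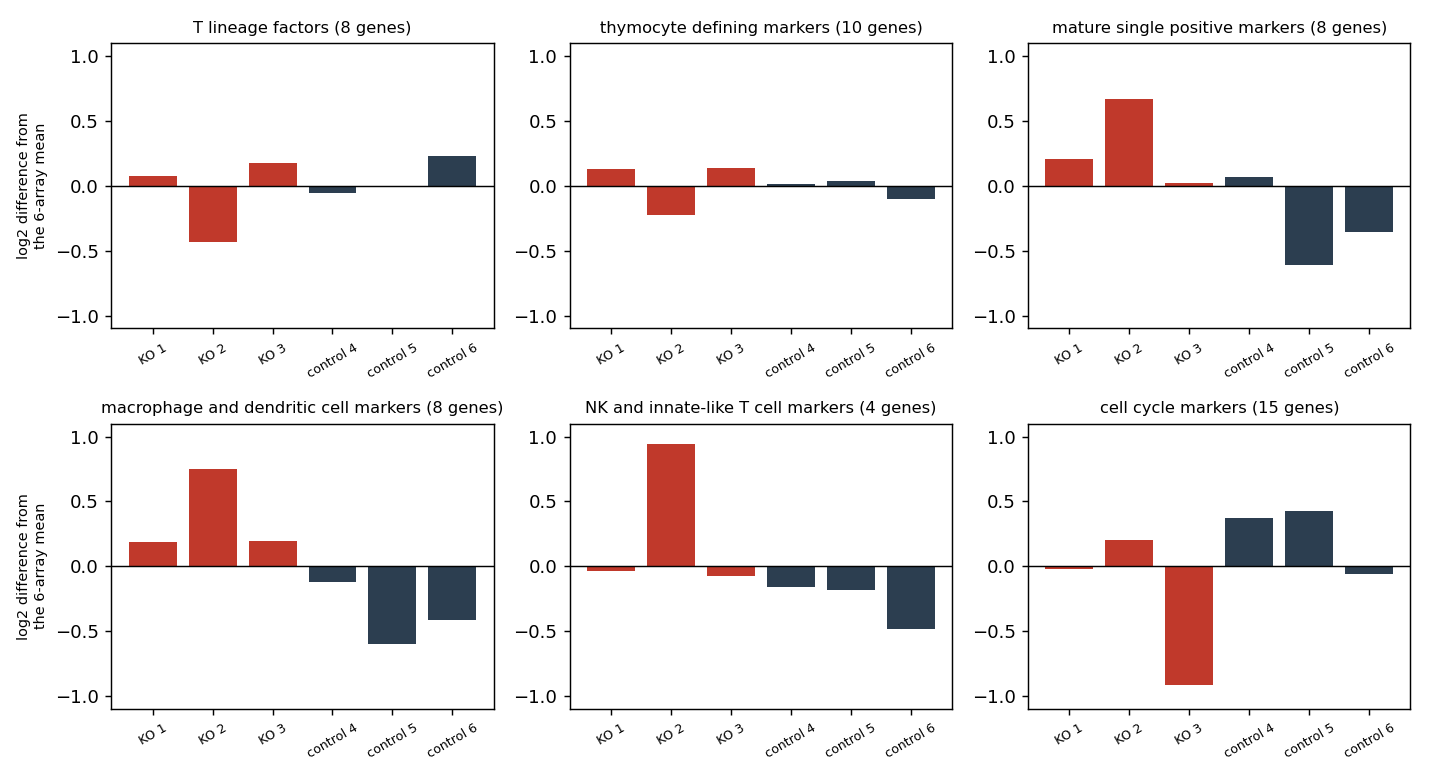
Mean log2 signal of the tested genes of 6 lists on each array, as the difference from the mean of the 6 arrays. Red bars are knockout and dark bars control arrays. The T lineage factors and thymocyte markers are lowest on knockout replicate 2, the array on which the mature, macrophage and dendritic cell, and NK and innate-like lists are highest.

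Some probes of a gene did not follow the other probes of that gene from array to array. By the range over the arrays of a probe's gap to the brightest probe of its gene, the largest value was 1.94, for the Ikzf1 probe ILMN_3051466. That dim probe ILMN_3051466 read 7.96, 6.54 and 9.02 in the knockout and 7.48, 7.60 and 8.80 in the controls, a range of 2.48 over the 6 arrays, where the brightest Ikzf1 probe ranged over 0.61. Knockout replicate 3 and control replicate 6, a pair by header number, were the 2 highest arrays by at least 0.84. ILMN_1255419 showed the same order of arrays at the top, with 7.82 and 7.61 on these arrays and 6.37 to 6.79 on the other 4. The remaining Ikzf1 probes, ILMN_2584685, ILMN_1256645 and ILMN_3127790, did not have these 2 arrays on top.

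For Bcl11b, 3 of the 4 probes had the same 2 arrays above all others, by 0.41 (ILMN_2443624), 0.19 (ILMN_2436183) and 0.049 (ILMN_2611022). The first of these, ILMN_2443624, read 10.27 and 10.34 on knockout replicate 3 and control replicate 6 and 8.83 to 9.86 on the other 4 arrays. In the table header these 2 arrays carry the highest numbers, next to each other and apart from those of the other 4, and no label says what the numbers stand for. Across the factors, 9 of 20 probes had these 2 arrays above all others, against 13.6% of all tested probes. For 2 of 20 (the Ikzf1 pair) it was by more than 0.5 on the log2 scale, against 1.8%. The 9 probes belong to Bcl11b, Ikzf1, Lef1 and Satb1 only, and include the Ikzf1 and Bcl11b probes described above. Probes of a gene are not independent, so the shares are not a like comparison. The 2 arrays are 1 knockout and 1 control, and the genotype differences were -0.12 (ILMN_3051466), -0.042 (ILMN_1255419) and -0.41 (ILMN_2443624). Which transcript forms the probes read was not analysed here.

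**Figure D5:**
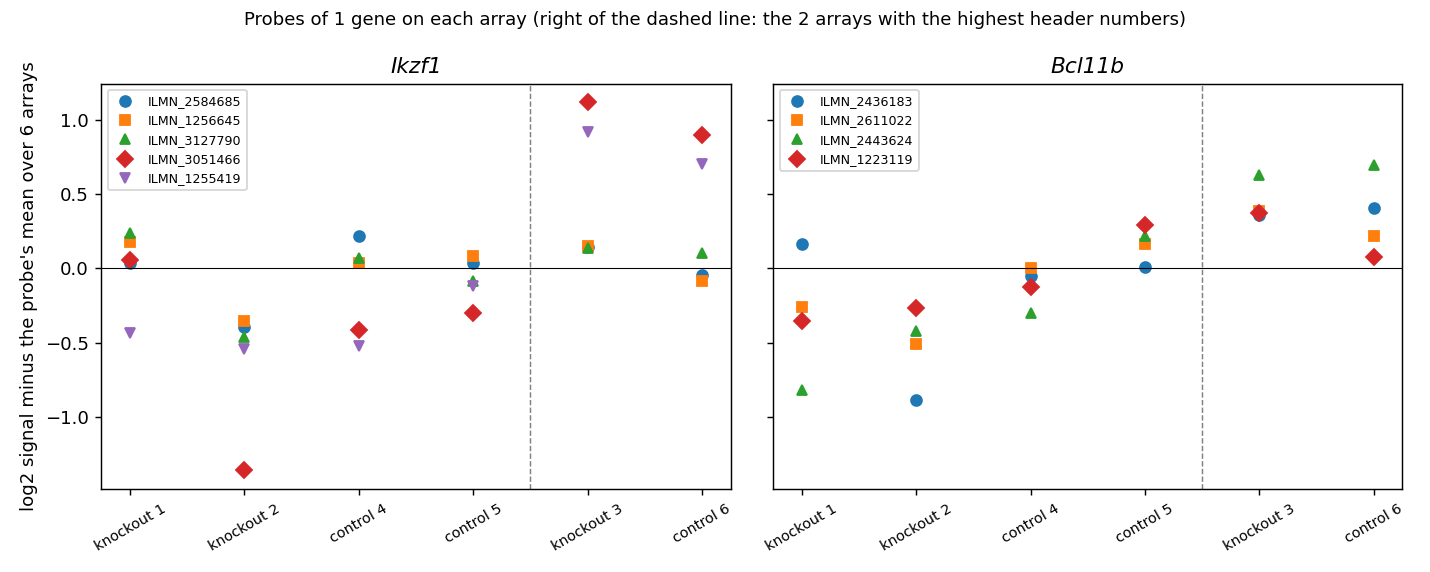
Log2 signal of each tested probe of Ikzf1 (left, 5 probes) and Bcl11b (right, 4 probes) on each array, minus that probe's own mean over the 6 arrays. The 2 arrays right of the dashed line carry the highest header numbers, whose meaning is not given, and there 2 Ikzf1 probes and the Bcl11b probe ILMN_2443624 stand above all 4 other arrays by 0.84, 0.82 and 0.41.

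Relatives of the factors, that is other members of their families, were tested for 13 of 21 genes. Of these 5 had higher and 8 lower means in the knockout, with a median of -0.080, and 0 passed the threshold in limma. Leaving out each array in turn moved the median between -0.24, without knockout replicate 3, and 0.073, without knockout replicate 2. Tox3, an HMG box gene, differed by 0.63 ± 0.25 (SE), with 6.12, 6.07 and 6.64 in the knockout and 5.47, 5.48 and 5.997 in the controls (limma adjusted p = 0.998). Ets2 and Gabpa, ETS family genes, differed by -0.46 ± 0.24 and -0.35 ± 0.21, and the other tested Gabpa probe by -0.11. Ikzf3, which encodes Aiolos, differed by -0.27 ± 0.20, and its other tested probe by 0.43 ± 0.22 in the opposite direction. That other Ikzf3 probe, ILMN_1249254, was dim and was detected on 3 knockout arrays but only 1 control array. The detection filter thus favoured a higher knockout value for it. For the brightest probes of these 4 of 13 genes the groups did not overlap, where 7.64% of all tested probes had no overlap. Gata1, Gata2, Tox2 and Erg were detected on 0 arrays.

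The protein partners measured included subunits of the NuRD complex, which Ikaros and BCL11B recruit, Groucho family corepressors of TCF1 and LEF1, CBFB and beta-catenin. Hdac3 and Ldb1 were in the list as well. Of 24 genes 20 were tested, 6 with higher and 14 with lower means, a median of -0.087, 0 past the threshold in limma and 0 at an unadjusted p under 0.05. Leaving out each array in turn moved the median between -0.11, without knockout replicate 1, and 0.022, without knockout replicate 2, and it was 0.025 with array weights. The 4 with the smallest p were Gatad2b (0.56 ± 0.43, SE), Mta1 (-0.25 ± 0.20), Rbbp4 (-0.30 ± 0.26) and Mbd3 (-0.20 ± 0.23), subunits of NuRD. The other Gatad2b probe stood at 0.031. Cbfb, the partner of the Runt proteins, differed by -0.11 ± 0.24, and Ctnnb1, which encodes beta-catenin, by -0.13 ± 0.24.

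Other transcription factors of the T lineage were tested for 25 of 37 genes, 14 higher and 11 lower, with a median of 0.086 and 0 past the threshold in limma. The median was 0.029 over genes detected on all 6 arrays, 0.032 without control replicate 4, 0.041 without control replicate 5, 0.055 without control replicate 6 and -0.015 with array weights. Myb, a factor of proliferating and double-positive thymocytes, had the smallest p. Its brightest probe, ILMN_1219713, read 7.49, 7.28 and 8.36 in the knockout and 8.39, 8.75 and 8.88 in the controls, a difference of -0.96 ± 0.31 (SE, n = 3 per group; limma adjusted p = 0.998). The groups did not overlap for this probe, but its other 2 tested probes differed by -0.014 ± 0.46 and -0.029 ± 0.29. Klf2, a factor of thymic egress, differed by 0.67 ± 0.32, Lmo2 by 0.48 ± 0.29 and Rora by 0.38 ± 0.24. Within the pairs Klf2 differed by 0.22, 1.70 and 0.10, with the largest value in the pair of knockout replicate 2. Zbtb7b, the CD4 lineage factor downstream of GATA3 and TOX, was detected on 0 arrays.

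Genes that these factors are reported to regulate in mouse T cells were tested for 21 of 28 members, 15 with higher and 6 with lower means. Of all tested genes 47.9% were higher. The 21 genes include all 10 tested thymocyte markers. In limma 0 of the 21 passed the threshold and 3 had an unadjusted p under 0.05, against 3.5% of all tested genes. The median log2 difference of the 21 genes was 0.14. It was 0.028 without knockout replicate 3, 0.027 without control replicate 6 and 0.092 without control replicate 4. Itgae, the integrin gene that RUNX3 activates in CD8 cells, differed by 1.20 ± 0.34 (SE; unadjusted p = 0.00656, limma adjusted p = 0.998), and its other 3 tested probes by 1.26, 0.69 and 0.48. Ccr7 and Myb appear above, and Cd28, a costimulatory receptor gene, differed by 0.38 ± 0.29. Within the pairs Itgae differed by 0.68, 2.24 and 0.69.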

How the data were processed

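Signals came from an Illumina mouse bead array hybridised with RNA amplified and labelled from 100 ng, per the labels' protocols. The deposited table holds intensity per probe and array, not normalized between arrays, with a detection p-value beside each, per the file headers. A second deposited table of intensity holds the same arrays after normalization by the authors: each column ranks its probes as 1 array does, and its values are partly below 0. How it was normalized was not stated in the labels. The submitters' processing notes name BeadStudio 3.1.3.

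With limma 3.58.1 in R 4.3.3, the background was corrected by normexp with the detection p-values, 16 was added, arrays were made alike by quantile normalization and log2 was taken, which understates changes of dim probes. A log2 value is thus on the scale of corrected signal plus 16. Mean signals before this ran from 340.1 to 678.5 and 13973 to 15182 probes were detected per array; the number of arrays limits precision. Knockout was compared with control by lmFit and eBayes (3 arrays each, no covariate), with two-sided p-values adjusted by Benjamini-Hochberg over 14651 probes. The fit was tested on simulated data.

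A gene is read by its tested probe of highest mean. Probe names came from the array annotation, updated by gene number (GRCm38.p6); 34885 probes had 1 symbol, 18 several and 10378 none. Deviations from group means correlated by 0.128, 0.164 and 0.518 in the pairs of arrays with neighbouring header numbers, and by 0.317 for knockout replicate 2 with control replicate 4. The members and lists were chosen with earlier results of these data known. Named were all members, and of each list the 4 genes (markers, 2) with the smallest p. Cbfb, Ctnnb1, Pcna, Tyms, H2-Ab1, Mpeg1, Cd74, Csf1r, Lyz2 and Siglech were added after their values were seen, as was leaving out each array for the marker lists. Alternatives are given in the closing section.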

Additional observations from a re-analysis of the deposited data

How the results depend on the processing

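Of the T lineage factor probes 0 passed the threshold under the main setting and all 18 alternatives that test probes, and 0 genes of the relatives, partners, other factors and targets did. The count over all probes was 4. It was 2 without background correction, 1 with no filter on dim probes and 2 with neighbouring array numbers as a replicate block. Without 1 array it was 0 to 1. It was 5 with an offset of 1, 5 with a trend and robust prior and 6 with the authors' normalized values. Under the remaining settings it was 3 or 4. The count of factor probes below 0 was 19, 17 with median scaling, 11 with array weights and 8 to 20 without 1 array. It was 18 with probes detected on all 6 arrays. With no filter it was 23 of 25, but the probes this adds were detected on 0 arrays and carry no measured difference. The members' median was -0.14, -0.014 with array weights and -0.22 to 0.067 without 1 array. Among the genes, Runx1 turned to 0.001 with median scaling and Lef1 to 0.023 with the mean of all tested probes. With array weights Bcl11b, Tox, Runx1 and Ets1 turned to 0.019, 0.017, 0.24 and 0.12. Without 1 array Lef1 ran from -0.23 to 0.10, Bcl11b from -0.48 to 0.14, Satb1 from -0.30 to 0.079, Runx1 from -0.14 to 0.20, Ets1 from -0.19 to 0.19 and Ikzf1 from -0.25 to 0.020. Labels give the groups different replicate numbers, so the block rests on header numbers alone. The number of arrays limits all of this: the median standard error of a factor probe's log2 difference was 0.256.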
